A study of Homo sapiens with 3 samples.

Results

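The heat shock factors and small heat shock proteins were examined here as 7 genes: HSF1, HSF2, HSF4, HSPB1, HSPB8, HSPB11 and CRYAB. They were picked by gene name from the 58735 genes of the expression table, and the rule itself uses no measured value. RNA was sequenced from H660 cells (NCI-H660), a human neuroendocrine prostate cancer line, labelled as parental. Cells received DMSO, the vehicle, or JG231 at 2.5 μM or 5 μM, and were treated for 24 h. JG231 is an allosteric inhibitor of HSP70 chaperones that holds them in the ADP-bound state. Each of the 3 conditions had 1 library of 1 unmodified cell line, so a difference between libraries has no replicate check and no p-value is given. The labels give the cell type as prostatic adenocarcinoma. Of 9 neuroendocrine markers examined, 8 were above 1 FPKM in all 3 libraries, and FOXA2 was at 0.979 FPKM in DMSO and above 1 FPKM in both treated libraries. None of the 6 prostate luminal markers reached 1 FPKM in any library, with TMPRSS2 the highest of the 6 at 0.315 FPKM. FPKM, the deposited unit, is a fragment count scaled to the length of the transcript and to the size of the library.

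HSF1 is the main transcription factor of the heat shock response. In resting cells it is held inactive by chaperones, HSP70 and HSP90 among them, and once released it forms trimers, enters the nucleus and binds heat shock elements in the promoters of chaperone genes. Its activation is mostly a change of the protein, so its mRNA level does not report its activity. Small heat shock proteins hold unfolding proteins in solution without using ATP, until HSP70 refolds them or they are degraded. HSPB1 (HSP27) and CRYAB (αB-crystallin) are the best known of them, and HSPB8 works with the cochaperone BAG3 in selective autophagy. HSPB11 carries a family name only: it is IFT25, a subunit of the intraflagellar transport B complex that moves cargo in cilia.

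The heat shock element is built from inverted repeats of a short unit, which can be written GAANNTTC or TTCNNGAA. Each form is its own reverse complement, so 1 scan reads both strands, and the forms can overlap. RefSeq promoters (build GRCh38.p14) were scanned over the 250 bases before each transcript start. Of the 7 genes, 5 had an entry in the promoter table. HSPB1 and HSPB8 each held 1 GAANNTTC unit, and the windows of HSF2, HSF4 and HSPB11 held neither form. Over all 35116 promoters, 11.6% held at least 1 of the forms, and 5.78% held GAANNTTC. Among 42 promoters of 26 chaperone genes known as HSF1 targets, 38.1% held at least 1 form. Counted by gene, at least 1 promoter held a form in 14.0% of all 27305 genes and in 61.5% of the 26 target genes. The HSPB1 promoter is shown because HSPB1 had the largest difference among the 7 genes as deposited (HSF1 was ahead of it with a length trend removed), and the HSPB8 stretch because it held the other match. The first spans chr7:76302423-76302672 and the second chr12:119178832-119178861, both on the plus strand. Capitals mark the unit, which starts at position -182 in HSPB1 and -88 in HSPB8, counted back from the transcript start. A match describes the letters only and is not a measured binding site.
HSPB1: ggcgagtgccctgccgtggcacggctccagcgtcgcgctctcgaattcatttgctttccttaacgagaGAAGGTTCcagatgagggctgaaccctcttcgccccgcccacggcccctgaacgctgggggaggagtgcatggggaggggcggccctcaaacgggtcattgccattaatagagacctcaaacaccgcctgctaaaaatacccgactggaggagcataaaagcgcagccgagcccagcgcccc
HSPB8: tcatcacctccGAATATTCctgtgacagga

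The sizes of the FPKM steps gave the depth, because low values were whole multiples of what 1 fragment is worth. The DMSO library held an estimated 16100000 fragments. The 2.5 μM library held 20400000 fragments and the 5 μM library 24100000 fragments. Intervals below are 95% exact counting intervals from fragments recovered this way. They cover counting error only, since sequenced fragments without molecular identifiers are not independent molecules. Mitochondrial genome and small RNA genes took 40.4% of the FPKM sum in DMSO, 24.6% at 2.5 μM and 29.2% at 5 μM. Scaling the same table without these genes lowers every change against DMSO, by 0.37 at 5 μM and 0.28 at 2.5 μM for the median gene on the log2 scale. For the 7 genes this is given below where it alters a call. For the gene lists it is given only where it turns the sign of a median, and their counts are for the values as deposited. Of the 9 neuroendocrine markers, 8 were lower at 5 μM than in DMSO and 7 at 2.5 μM (88.9% and 77.8%), against 45.1% and 43.4% of all tested genes, where lower means a log2 change below -0.25 with over 1 FPKM in either library. Their median log2 changes were -0.84 and -0.44, and the part of such a shift in the results below was not tested. In a bulk sample, fewer cells of a type and less RNA per cell cannot be told apart.

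HSPB1 was by far the most abundant of the 7 transcripts and CRYAB the least. In DMSO the order was HSPB1, HSF1, HSF2, HSPB11, HSF4, HSPB8 and CRYAB, and it was the same at both JG231 doses. The counting intervals of neighbours in this order were apart in every library, except for HSPB8 and CRYAB. In DMSO the HSPB8 interval was 0.283 to 0.698 FPKM, and the CRYAB interval was 0.115 to 0.591 FPKM. At 5 μM these 2 intervals also overlapped, at 0.440 to 0.825 FPKM and 0.150 to 0.539 FPKM. At 2.5 μM they did not.

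**Figure D1:**
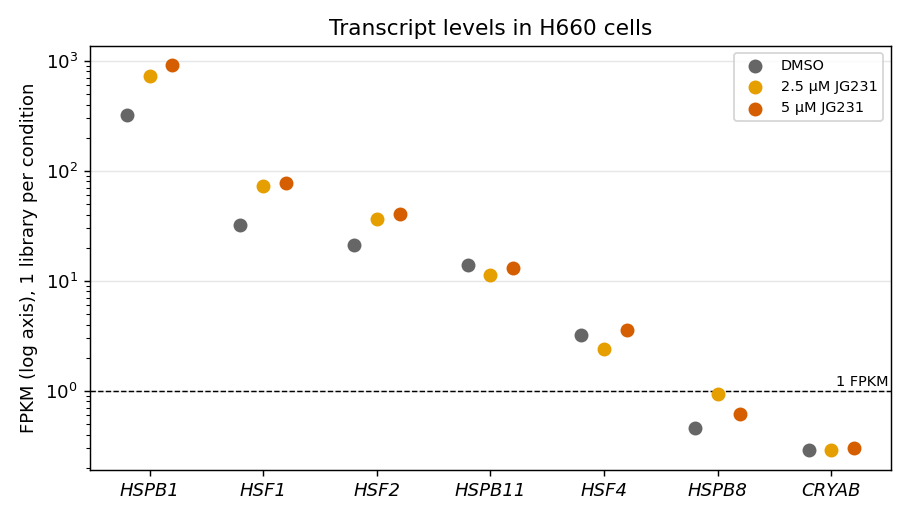
FPKM (log axis) of the 7 genes in the 3 H660 libraries, with 1 point per library (grey DMSO, orange 2.5 μM JG231, red 5 μM JG231) and a dashed line at 1 FPKM. HSPB1 sits between 320.7 and 911.6 FPKM, and HSPB8 and CRYAB lie below 1 FPKM in all 3 libraries.

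Differences are given as log2 changes of FPKM with 0.1 added to each value, which understates changes of low genes. A gene counted as higher or lower when it had over 1 FPKM in either library and a log2 change beyond 0.25. Of the 7 genes, 5 passed the FPKM filter, and HSPB8 and CRYAB did not. At 5 μM, HSF1, HSF2 and HSPB1 were higher than in DMSO, which is 3 of 5 against 36.5% of the 15765 genes tested. None of the 5 was lower, against 45.1% of genes. HSPB1 and HSF1 were higher by over 1, against 14.7% of genes. At 2.5 μM the same 3 genes were higher, against 36.4% of 15746 genes. HSF4 and HSPB11 were lower at this dose, against 43.4% of genes. HSPB1 and HSF1 again exceeded 1, against 12.9% of genes. With the trend on transcript length removed, neither gene exceeded 1 at either dose. Without mitochondrial and small RNA genes, only HSPB1 did so at 5 μM and neither did at 2.5 μM, with HSPB1 at 0.90 and HSF1 at 0.88. Abundant genes were also higher as a class. HSPB1 and HSF1 belong to the top decile by DMSO level, among protein-coding genes with at least 1 FPKM in DMSO, and its median change was 0.30 at 5 μM and 0.20 at 2.5 μM. HSF2 belongs to the decile next to it, with medians of 0.13 and 0.11. These deciles by DMSO level were chosen after the data were seen. Ranked by mean level over the 3 libraries, the decile of HSPB1 and HSF1 had medians of 0.58 at 5 μM and 0.47 at 2.5 μM. That of HSF2 had medians of 0.39 and 0.35. A ranking by that mean favours genes that were higher after treatment. Both doses were set against the same DMSO library, so an unusual value there would enter both. Between the doses, with no shared control, HSPB1 and HSF4 were higher at 5 μM, against 26.8% of 14197 genes, and none of the 5 was lower, against 30.1% of genes. The median change of all tested genes was -0.11 at 5 μM and -0.08 at 2.5 μM.

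**Figure D2:**
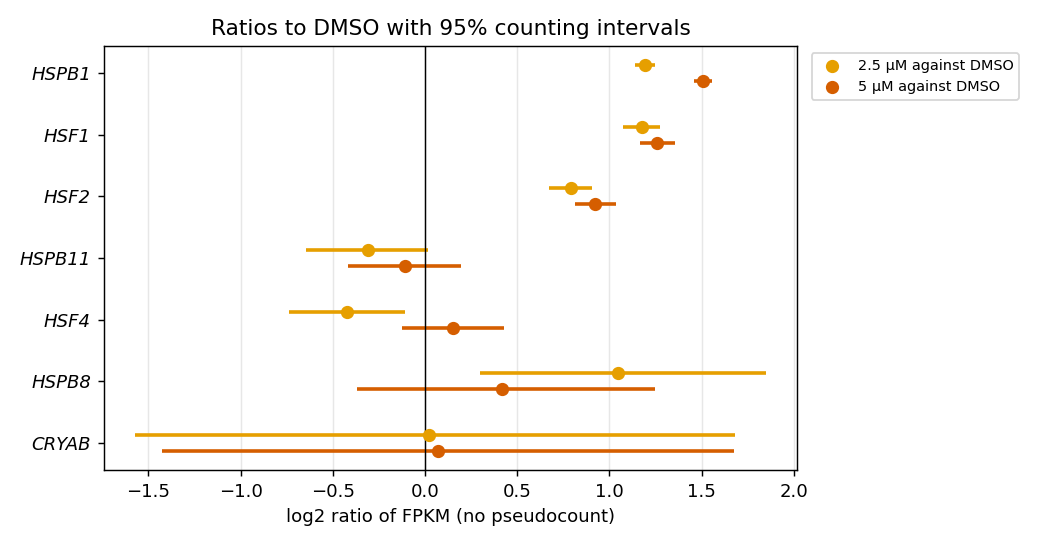
Log2 ratio of FPKM to DMSO (horizontal axis, no pseudocount) for each of the 7 genes, with orange points for 2.5 μM and red points for 5 μM. Lines are 95% counting intervals: those of HSPB1, HSF1 and HSF2 lie wholly above 0 at both doses, and those of CRYAB run from -1.57 to 1.68 at 2.5 μM.

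Among the factors, HSF1 (ENSG00000185122, chr8:144291591-144314720, plus strand, GRCh38) was the most abundant. Its level was 32.2 FPKM in DMSO, 72.7 FPKM at 2.5 μM and 77.2 FPKM at 5 μM. Both treated libraries were thus above DMSO and close to each other. The log2 change was 1.17 at 2.5 μM (interval 1.08 to 1.27) and 1.26 at 5 μM (interval 1.16 to 1.36). Of all tested genes, 10.2% had a higher change at 5 μM. Between the doses HSF1 differed by 0.09 (interval 0.02 to 0.15). The direction of that small difference depended on the scaling, since it was -0.09 with all libraries brought to a common FPKM sum. Without mitochondrial and small RNA genes the change at 5 μM was 0.88. DGAT1, which encodes a triglyceride synthesis enzyme, lies on the opposite strand and shares 137 bp of exon with HSF1. DGAT1 was at 21.7 FPKM in DMSO, 25.4 FPKM at 2.5 μM and 25.2 FPKM at 5 μM.

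HSF2, a factor that forms mixed trimers with HSF1 and acts in development, followed at lower levels. HSF2 (ENSG00000025156, chr6:122399551-122433119, plus strand) had 21.2 FPKM in DMSO, 36.6 FPKM at 2.5 μM and 40.1 FPKM at 5 μM. Its log2 change was 0.79 at 2.5 μM (interval 0.67 to 0.91) and 0.92 at 5 μM (interval 0.81 to 1.03). HSF1 and HSF2 did not keep their ratio. HSF1 stood at 1.52 times the HSF2 level in DMSO, at 1.99 times at 2.5 μM and at 1.92 times at 5 μM. The doses differed by 0.13 for HSF2 (interval 0.05 to 0.22), within the 0.26 spread of that difference over the 500 genes nearest in level, and it was -0.05 with a common FPKM sum.

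HSF4, best known from the lens, was the scarcest of the factors. HSF4 (ENSG00000102878, chr16:67164681-67169945, plus strand) had 3.24 FPKM in DMSO, 2.41 FPKM at 2.5 μM and 3.59 FPKM at 5 μM, from 176, 166 and 292 fragments. The 2.5 μM library was the lowest. Its level interval of 2.06 to 2.81 FPKM overlapped the DMSO interval of 2.78 to 3.76 FPKM. The log2 change was -0.41 at 2.5 μM (interval -0.74 to -0.11) and 0.15 at 5 μM (interval -0.13 to 0.43). The 5 μM library was higher than the 2.5 μM library by 0.56 (interval 0.29 to 0.86). That difference lay within the spread between these libraries for 500 genes of like level, which was 0.58. The sign at 5 μM depended on the scaling, at -0.22 without mitochondrial and small RNA genes. A neighbouring transcript on the same strand, AC074143.1, shares 1059 bp of exon with HSF4 and was at 0.0928, 0.195 and 0 FPKM, far below HSF4. HSF5, the remaining autosomal factor looked up, was listed at 0 in all 3 libraries.

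Among the small heat shock proteins, HSPB1 held nearly all of the signal. HSPB1 (ENSG00000106211, chr7:76302673-76304295, plus strand) had 320.7 FPKM in DMSO, 733 FPKM at 2.5 μM and 911.6 FPKM at 5 μM. It was the only one of the 5 tested genes that was higher by over 0.25 at 2.5 μM than in DMSO and again at 5 μM than at 2.5 μM. Its rank among 19831 protein-coding genes was 42 in DMSO, 22 at 2.5 μM and 21 at 5 μM. Its log2 change was 1.19 at 2.5 μM (interval 1.14 to 1.24) and 1.51 at 5 μM (interval 1.46 to 1.56). Of all tested genes, 9.86% had a higher change at 2.5 μM and 7.47% at 5 μM. The doses differed by 0.31 (interval 0.28 to 0.35), beyond the 0.20 spread of 500 genes of like level. It was no longer past 0.25 under other scalings, at 0.13 with a common FPKM sum, 0.23 without mitochondrial and small RNA genes and 0.12 with the trend on transcript length removed.

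The HSPB1 transcript is short, and short transcripts were higher as a class in the treated libraries. The decile of protein-coding genes (mean of at least 1 FPKM) with the shortest transcripts, which holds HSPB1, was higher by a median of 0.61 on the log2 scale at 5 μM and of 0.43 at 2.5 μM. With the trend on transcript length removed, HSPB1 was at 0.87 at 5 μM and 0.75 at 2.5 μM. The part of transcript length in the difference was not tested further. Processed copies of HSPB1 gave few fragments. HSPB1P1 was listed at 0 in DMSO and had 8 fragments at 2.5 μM and 3 at 5 μM, and HSPB1P2 was listed at 0 in all 3 libraries.

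**Figure D3:**
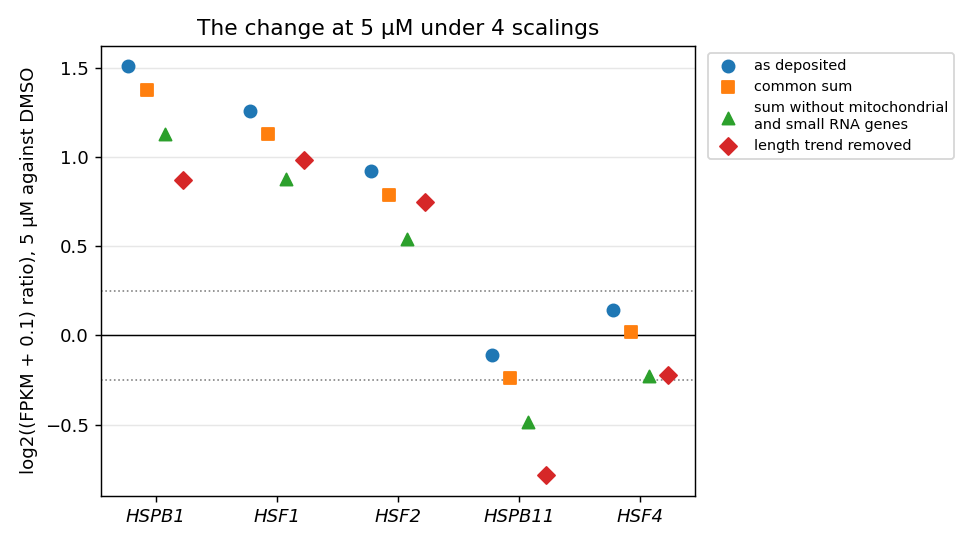
Log2 change at 5 μM against DMSO (vertical axis, 0.1 FPKM added) of the 5 genes that passed the FPKM filter, with 1 symbol per scaling and dotted lines at -0.25 and 0.25. HSPB1, HSF1 and HSF2 stay above 0.25 under all 4 scalings, and HSPB11 falls below -0.25 under 2 of them.

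HSPB8 was low in every library. HSPB8 (ENSG00000152137, chr12:119171555-119224855, plus strand) had 0.456 FPKM in DMSO, 0.944 FPKM at 2.5 μM and 0.610 FPKM at 5 μM, from 21, 55 and 42 fragments. The middle dose was the highest. The log2 ratio without a pseudocount had an interval of 0.30 to 1.85 at 2.5 μM and of -0.37 to 1.25 at 5 μM, so at 5 μM no difference from DMSO was detectable at this depth.

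CRYAB was lower still, at the edge of detection. CRYAB (ENSG00000109846, chr11:111908564-111923722, minus strand) had 0.287 FPKM in DMSO, 0.291 FPKM at 2.5 μM and 0.301 FPKM at 5 μM. These values stand for 7, 9 and 11 fragments. The log2 ratio had an interval of -1.57 to 1.68 for 2.5 μM, and of -1.43 to 1.68 for 5 μM, which leaves room for a change in either direction. HSPB2, which overlaps CRYAB on the opposite strand by 598 bp of exon, was listed at 0 in all 3 libraries.

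The other HSPB genes were scarce as well. CRYAA, HSPB2, HSPB3 and ODF1 were listed at 0 in all 3 libraries. HSPB7 was at 0.0477 FPKM in DMSO and listed at 0 in both treated libraries. HSPB9 had 5 fragments in DMSO, 1 at 2.5 μM and 0 at 5 μM. HSPB6 (HSP20), a small heat shock protein of muscle, was the exception in DMSO, with 1.23 FPKM from 34 fragments. It had 0.627 FPKM from 22 fragments at 2.5 μM and was listed at 0 at 5 μM. The DMSO value of HSPB6 was 17.0 times the FPKM that 3 fragments would give in the 5 μM library. That ratio leaves out the counting error of the 34 fragments in DMSO, so it is not a lower bound. Values of 0 became more frequent in general: 21862 genes were above 0 in DMSO, 19352 at 2.5 μM and 17293 at 5 μM, although the treated libraries were deeper. The part of this in the zeros of HSPB6, HSPB7 and HSPB9 was not tested. Of 11 stromal, endothelial and immune markers, DCN, PECAM1, PTPRC and CD3E were listed at 0 in all 3 libraries, and COL1A1 and CD14 alone passed 1 FPKM in any. HSPB1 made up 99.2% of the summed FPKM of the 10 HSPB genes in DMSO, 99.7% at 2.5 μM and 99.9% at 5 μM. That sum leaves out HSPB11, which does not belong to the family by structure.

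HSPB11 did not move with HSPB1. HSPB11 (ENSG00000081870, chr1:53916574-53945699, minus strand) had 13.9 FPKM in DMSO, 11.3 FPKM at 2.5 μM and 12.9 FPKM at 5 μM. All 3 levels were close, with both treated libraries slightly below DMSO. The log2 change was -0.31 at 2.5 μM (interval -0.64 to 0.02) and -0.11 at 5 μM (interval -0.42 to 0.20). Both intervals include 0, the one at 2.5 μM only just. They rest on fragments counted at the 685 bp of the main transcript, because the length could not be read from the steps. A longer length would give more fragments and narrower intervals. HSPB11 is in the same decile of shortest transcripts as HSPB1, whose median was 0.61 at 5 μM. With the length trend removed it was at -0.78 at 5 μM, and without mitochondrial and small RNA genes at -0.49, both past the threshold for lower.

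The other subunits of the intraflagellar transport B complex diverged from each other. All 16 were above 1 FPKM in at least 1 library of each comparison with DMSO. At 5 μM, 4 (25%) were higher, against 36.5% of all tested genes, and 8 (50%) lower, against 45.1%, with a median change of -0.45. At 2.5 μM, 4 (25%) were higher, against 36.4%, and 9 (56.2%) lower, against 43.4%, with a median of -0.56. The sign of the median depended on the level filter, since over the 7 subunits with at least 5 FPKM in DMSO it was 0.13 at 5 μM and 0.30 at 2.5 μM, a limit chosen after the data were seen. IFT27, the small GTPase that pairs with IFT25, had 4.45 FPKM in DMSO, 2.54 FPKM at 2.5 μM and 3.75 FPKM at 5 μM, with changes of -0.78 and -0.24. TRAF3IP1, also known as IFT54, had 5.80, 3.04 and 1.38 FPKM in the same order, a change of -2.00 at 5 μM. TTC30A and TTC30B, which encode the 2 forms of IFT70, changed by -1.67 and -1.38 at 5 μM. IFT52, a core subunit, stood on the other side with 10.1, 24.4 and 25.8 FPKM, a change of 1.34 at 5 μM. IFT27 was named after its values were seen, for its pairing with IFT25.

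**Figure D4:**
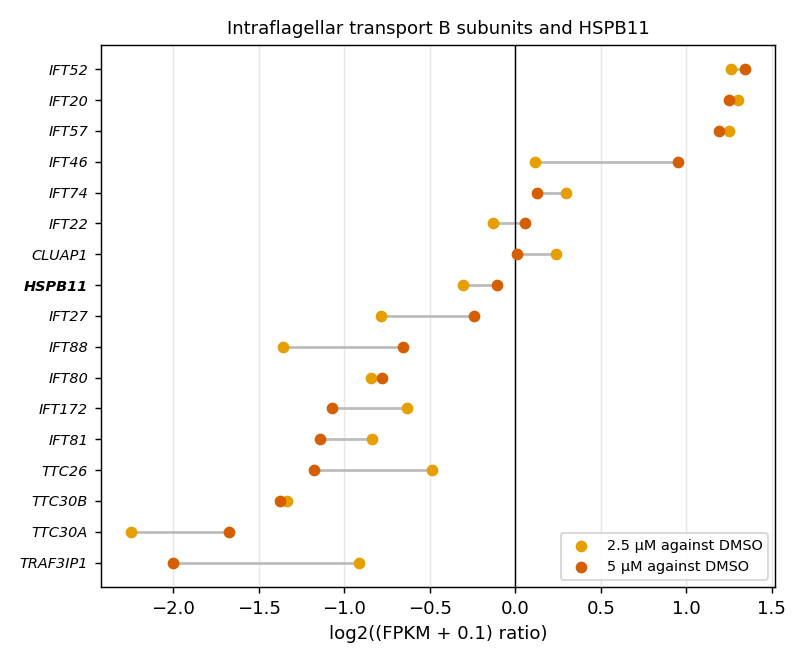
Log2 change against DMSO (horizontal axis, 0.1 FPKM added) of 16 intraflagellar transport B subunits and HSPB11 (bold), with orange points for 2.5 μM, red points for 5 μM and a grey line joining them. HSPB11 lies near 0, between subunits such as IFT52 at 1.34 and TRAF3IP1 at -2.00 for 5 μM.

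Chaperone genes known as HSF1 targets were looked up next, because HSPB1 is itself such a target. All 28 genes on the list had over 1 FPKM in at least 1 library of each comparison with DMSO. As deposited, 12 of 28 (42.9%) were higher at 5 μM, against 36.5% of all tested genes, and 4 (14.3%) were lower, against 45.1%. The median change was 0.22, and it turned to -0.16 without mitochondrial and small RNA genes. The counts were not redone under that scaling, which lowers every change against DMSO and so favours lower calls over higher ones. At 2.5 μM, 8 (28.6%) were higher, against 36.4%, and 9 (32.1%) lower, against 43.4%. Here the median was 0.10, or -0.19 without mitochondrial and small RNA genes and -0.02 with the length trend removed. The list therefore did not move as 1 group. As deposited, the HSPB1 change of 1.51 at 5 μM lay above all but 1 of its genes. With the length trend removed HSPB1 was at 0.87, and its rank among these genes was not worked out again.

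The exception was HSPA6, an HSP70 that is nearly silent without stress. HSPA6 had 0.603 FPKM in DMSO, 5.63 FPKM at 2.5 μM and 5.73 FPKM at 5 μM, from 23, 270 and 325 fragments, a change of 3.05 at 5 μM. DNAJB1, the main J-domain partner of inducible HSP70, had 36.9, 70.4 and 93.3 FPKM, a change of 1.33 at 5 μM. HSPA1A and HSPA1B encode inducible HSP70 and are near-identical copies, so the split of reads between them is uncertain. Their sum was 32.5 FPKM in DMSO, 45.1 FPKM at 2.5 μM and 66.7 FPKM at 5 μM, a change of 0.47 and then 1.04.

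The 4 target genes lower at 5 μM were SERPINH1, HSP90AA1, HSPH1 and HSP90AB1. SERPINH1, the collagen chaperone HSP47, had 31.1 FPKM in DMSO, 12.6 FPKM at 2.5 μM and 16.7 FPKM at 5 μM. HSP90AA1 and HSP90AB1, the cytosolic HSP90 genes, changed by -0.41 and -0.33 at 5 μM. HSPH1, the HSP110 exchange factor of HSP70, changed by -0.37. All 4 were further below DMSO at 2.5 μM, HSP90AB1 at -0.67 for example. They were named as the full set of lower genes, after their values were seen.

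**Figure D5:**
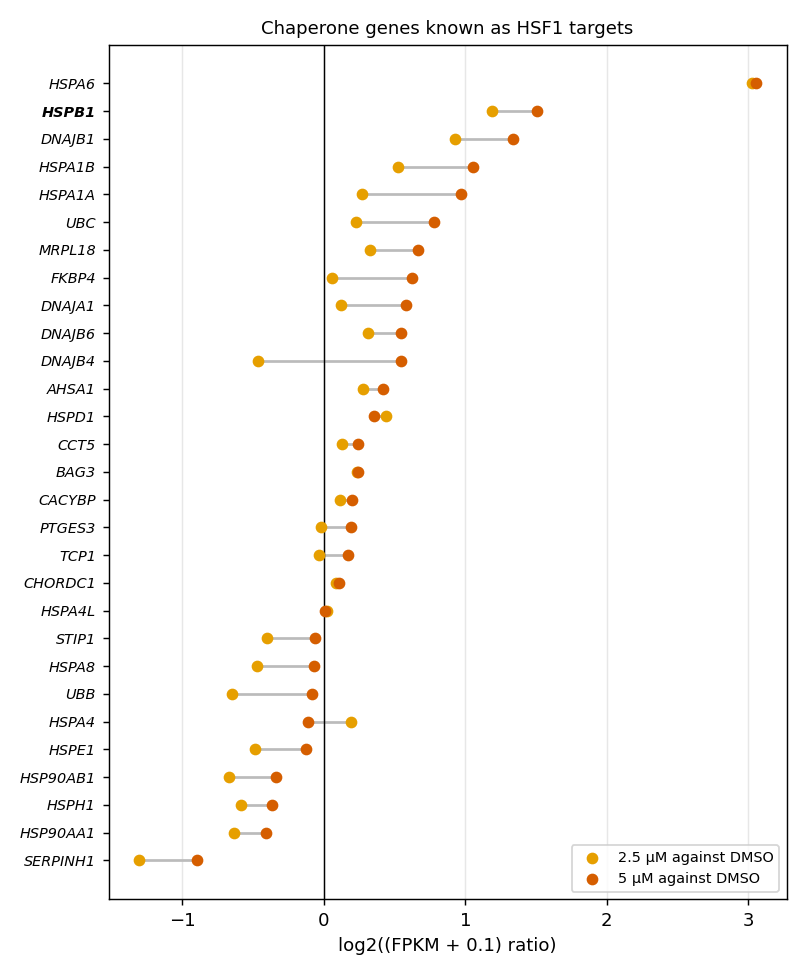
Log2 change against DMSO (horizontal axis, 0.1 FPKM added) of 28 chaperone genes known as HSF1 targets and HSPB1 (bold), with orange points for 2.5 μM, red points for 5 μM and a grey line joining them. As deposited, HSPB1 at 1.51 for 5 μM is second to HSPA6 at 3.05, and SERPINH1 is lowest at -0.89.

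Genes whose proteins bind or modify HSF1 were divided. All 20 had over 1 FPKM. At 5 μM, 8 (40%) were higher, against 36.5% of all tested genes, and 6 (30%) lower, against 45.1%. The median was 0.08, or -0.05 with a common FPKM sum and -0.29 without mitochondrial and small RNA genes. At 2.5 μM, 5 (25%) were higher, against 36.4%, and 6 (30%) lower, against 43.4%. Here the median was 0.04, or -0.25 without mitochondrial and small RNA genes and -0.01 with the length trend removed. NEDD4, a ubiquitin ligase, had 1.24 FPKM in DMSO, 9.22 FPKM at 2.5 μM and 8.86 FPKM at 5 μM. SIRT1, a deacetylase that prolongs DNA binding of HSF1, had 15.4, 38.7 and 33.1 FPKM. RPA1, a single-stranded DNA binding protein that helps HSF1 reach nucleosomal promoters, was lower, at 17.9, 10.3 and 8.82 FPKM. SMARCA4, the BRG1 chromatin remodeller, had 25.4, 17.5 and 15.5 FPKM.

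The kinases and partners of the small heat shock proteins were counted in the same way. Of 11 genes, 10 passed the FPKM filter, and SYNPO2 did not. As deposited, 5 (50%) were higher at 5 μM, against 36.5% of all tested genes, and none lower, against 45.1%. These counts were not redone without mitochondrial and small RNA genes. That scaling lowers every change against DMSO, so it favours lower calls over higher ones. At 2.5 μM, 3 (30%) were higher, against 36.4%, and 1 (10%) lower, against 43.4%. The 5 μM median of 0.29 turned to -0.09 without mitochondrial and small RNA genes, and the 2.5 μM median of 0.19 to -0.10. SQSTM1 (p62), the autophagy receptor that takes up cargo of the HSPB8 and BAG3 complex, had 30.5 FPKM in DMSO, 85.9 FPKM at 2.5 μM and 117.4 FPKM at 5 μM. PRKD1, a kinase that phosphorylates HSPB1, had 1.86, 7.06 and 7.38 FPKM. MAPKAPK3, another HSPB1 kinase, changed by 0.84 at 5 μM, and STUB1, the ubiquitin ligase CHIP, by 0.37. BAG3, named for its pairing with HSPB8 and after its values were seen, had 16.8, 19.8 and 19.8 FPKM, a change of 0.24 at both doses that missed the threshold.

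Partners of HSF2 were few. CDC20, which recruits HSF2 to the anaphase promoting complex, had 75.0 FPKM in DMSO, 135.6 FPKM at 2.5 μM and 164.9 FPKM at 5 μM. CUL3, a ubiquitin ligase scaffold, was lower at 6.56, 5.15 and 4.90 FPKM. ANAPC2, a subunit of the anaphase promoting complex, had 17.2, 11.1 and 14.6 FPKM. HSF2BP, an HSF2 binding protein of meiotic cells, was under 1 FPKM in all 3 libraries.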

How the data were processed

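The authors deposited 1 table of FPKM values per gene for H660 cells, and the values were used as deposited. The labels describe stranded mRNA libraries, and the submitters' processing notes name HISAT2, featureCounts and the GRCh38 (hg38) build. The paper's methods name a different quantifier, so the tool behind the FPKM values could not be settled. Versions and strand settings are not given in the sources used here. Strand matters for HSF1, HSPB8 and CRYAB, which share exon bases with genes on the opposite strand. HSF4 overlaps a gene on its own strand, which strand cannot separate.

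The 3 libraries were compared by FPKM and by log2 change with a pseudocount of 0.1. A change was called at over 0.25 with over 1 FPKM in either library. The thresholds follow the study's methods, which also kept genes that went to or from 0 and do not say in which library the FPKM minimum applied. Here such genes needed over 1 FPKM too. The value of 1 fragment was found from the FPKM steps of single-transcript genes under 50 fragments. It gave whole fragments within 0.05 for 88.2% of 4737 genes in DMSO, 85.8% of 3261 at 2.5 μM and 84.1% of 2025 at 5 μM. For HSF1, HSF2, HSPB1 and HSPB11 the transcript length could not be read from the steps, and the length of the main GENCODE 44 transcript was used, so their fragments are approximate. For HSF4, HSPB8 and CRYAB the fragments were whole within 0.01. Ratio intervals are Clopper-Pearson intervals of the fragments, and level intervals are exact Poisson intervals. The spread of genes of like level is the scaled median absolute deviation of the 5 μM against 2.5 μM change over 500 genes. The step finder was tested on simulated data.

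The genes and the pathway lists were chosen with earlier results of these data known. Named were all 7 genes, the 4 genes with the largest change at 5 μM of the same sign at both doses in each list, all genes of lists of up to 7, the 2 nearest genes in pattern to HSPB1 and HSF1, and overlapping genes and pseudogenes. One gene that this rule names is not reported here. Alternatives were other pseudocounts and filters, other scalings, removal of a length trend and sums over rows of 1 symbol. The planned comparison of protein sequences was not analysed here. Positions are from GENCODE 44 and promoters from RefSeq. Scripts ran under Python 3.11.15. Tables were handled with pandas 2.3.3, arrays with numpy 2.4.6 and intervals with scipy 1.17.1. The length trend came from the lowess smoother of statsmodels 0.14.6, and matplotlib 3.10.9 drew the plots.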

Additional observations from a re-analysis of the deposited data

How the results depend on the processing

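With 1 library per condition no spread between cultures can be given, and a low DMSO library would raise both doses. Over 9 alternatives no change of the 7 genes reversed where it had been called. The HSPB1 change spanned 0.87 to 1.51 at 5 μM and 0.75 to 1.24 at 2.5 μM. HSF1 went from 0.88 to 1.27 and 0.88 to 1.22, and HSF2 went from 0.54 to 0.93 and 0.50 to 0.84. HSF4 ranged from -0.69 to -0.31 at 2.5 μM and HSPB11 from -0.77 to -0.26. Genes past 1 numbered 2 at each dose as deposited. Without mitochondrial and small RNA genes they numbered 1 at 5 μM and 0 at 2.5 μM, and with the length trend removed 0 and 0. Genes past 0.25 between the doses numbered 2 as deposited, and 1 each for genes whose FPKM averaged at least 5, for a common sum, no mitochondrial and small RNA genes, or the length trend removed. The cause was not tested. Among list medians, that of the small heat shock protein kinases and partners at 5 μM turned to -0.0912 without mitochondrial and small RNA genes. The median of the intraflagellar transport B complex turned to 1.19 at 5 μM and 1.25 at 2.5 μM for the 5 subunits averaging at least 5 FPKM over the 3 libraries, a filter that by its construction favours subunits that were higher after treatment; with at least 5 FPKM in DMSO alone, chosen after the data were seen, it was 0.13 and 0.30, and that of the HSF2 partners at 2.5 μM to 0.04 (0.0429) with no filter. A sign change also came to medians that lay within 0.25 of 0 as deposited, those of the HSF1 targets, the HSF1 regulators and, at 2.5 μM, the kinases and partners, as given beside their counts. In all, 9 of 12 list medians had another sign under at least 1 of the 9 other settings, in 12 of 108 values. Depth limits HSPB8 and CRYAB, whose intervals at 5 μM include 0. No paired analysis was possible because each condition had 1 library.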

Other observations

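The genes nearest to HSPB1 and HSF1 in their pair of log2 changes were sought among 7052 protein-coding genes with a mean of at least 5 FPKM, over 2 doses that share the DMSO library. For HSPB1 they were MRPL9, a mitochondrial ribosomal protein, at 23.4, 54.5 and 66.7 FPKM in DMSO, 2.5 μM and 5 μM, and EIF2B2, a subunit of the exchange factor of eIF2, at 3.01, 7.16 and 8.65 FPKM. Their distances to HSPB1 were 0.025 and 0.032 on the log2 scale. TMCC2 lay close to HSF1, at 2.73, 6.24 and 6.70 FPKM and a distance of 0.011. With only 2 changes per gene many genes lie close to any pattern.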
